A study of Mus musculus with 3 samples.

Results

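The genes described here mark arteries and veins or build the channels of the vessel lining: the connexin genes Gja1, Gja4 and Gja5, the water channel gene Aqp1, the transcription factor genes Sox17, Sox18 and Nr2f2, the ligand gene Efnb2 and its receptor gene Ephb4, and the chemokine receptor gene Cxcr4. They were taken by symbol from 18287 listed genes, and 9 of the 10 symbols were found, so that Cxcr4 is not analysed here. They were chosen with the differences between these libraries in view, so their levels and ratios are descriptions and carry no test. RNA came from mouse aortic endothelial cells (MAECs), a purchased culture from the aorta, with 1 library in each of 3 groups. The control library came from cells labelled only as control. For a second library the culture received 5 mU/mL of glucose oxidase for 30 min, which makes hydrogen peroxide from glucose and oxygen. The last came from cells given the same glucose oxidase together with ethyl-2-hydroxybenzylamine (Et2HOBA) at 0.2 mM for 24 h. The series used Et2HOBA as a scavenger of isolevuglandins, products of lipid oxidation. The labels give neither the order of these exposures nor the time of harvest, and no library given Et2HOBA alone was analysed here. A purchased culture has left flow and its neighbouring cells, which limits it as a model of the artery.

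Endothelial cells of arteries and veins differ in the genes they use. Arterial cells are known for ephrin-B2 on their surface, for the connexins Cx37 and Cx40 (from Gja4 and Gja5) in their gap junctions, and for the transcription factor SOX17. Venous cells are known for the receptor EPHB4 and for COUP-TFII, the nuclear receptor encoded by Nr2f2, which holds Notch signalling down. Gap junctions are channels that join neighbouring cells, each built of connexin proteins, and Cx43 (from Gja1) is the form found where endothelium meets disturbed flow or is injured.

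Each library held between 35005089 and 40212212 reads over the listed genes. With 1 library in a group there is no replicate check and no test between conditions. Intervals are exact Clopper-Pearson intervals at 95% on the reads of a pair of libraries, cover counting error only, and compare libraries. The 9 genes had at least 83 reads in every library. Both comparisons against control share the same control library, so their values stand side by side and are not independent. Log2 ratios are of the normalized count plus 10, whereas percentages of control are of the normalized count without that addition. Levels compared between genes are TPM, in which reads are divided by an exon length and every library sums to the same total. That length joins all annotated exons of a gene and can exceed its longest transcript. Levels and ratios between genes depend on this choice, which the intervals do not cover.

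Against control, 4 of the 9 genes passed a log2 ratio of 1 in the glucose oxidase library, 3 lower and 1 higher, where 12.7% of all listed genes passed in either direction, 8.60% lower and 4.07% higher (9.30%, 4.76% and 4.53% of protein-coding genes). In the library given both agents 6 passed, 5 lower and 1 higher, beside 14.7% of all genes, 8.04% lower and 6.66% higher (16.6%, 9.30% and 7.33% of protein-coding genes). Between the treated libraries 4 passed, all lower with Et2HOBA, beside 8.55% of all genes, 2.15% lower and 6.39% higher (3.32%, 2.35% and 0.971% of protein-coding genes). Of these 4, Sox18 lay at the limit, with a log2 ratio of -1.01 and a level of 49.7% (47.4 to 52.1), and with a pseudocount of 50 the count was 3. The medians over the 9 genes were -0.67, -1.16 and -0.49 in these comparisons, and over all genes they were -0.01, 0.00 and 0.00. Since the genes were chosen on these contrasts, the shares give scale only.

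The sequences upstream of the 4 genes past a log2 ratio of 1 after glucose oxidase are shown because their levels differed from control in opposite directions: Gja4, Gja5 and Aqp1 were lower and Gja1 was higher in both treated libraries. Each is the run of 250 bases before the RefSeq start site in build GRCm38.p6, read along the gene's strand, and for Gja5 that start lies inside the longer span that GENCODE gives the gene. The stretches lie at chr4:127314040-127314289 (minus strand, Gja4), chr3:97032152-97032401 (plus strand, Gja5), chr6:55336049-55336298 (plus strand, Aqp1) and chr10:56377050-56377299 (plus strand, Gja1). Capitals mark every match to 1 of 7 motifs, searched on both strands.
Gja4: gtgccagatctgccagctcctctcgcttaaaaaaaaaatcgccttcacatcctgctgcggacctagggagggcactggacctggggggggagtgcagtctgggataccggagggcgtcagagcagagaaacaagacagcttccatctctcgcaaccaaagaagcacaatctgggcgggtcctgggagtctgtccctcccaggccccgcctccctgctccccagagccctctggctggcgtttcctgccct
Gja5: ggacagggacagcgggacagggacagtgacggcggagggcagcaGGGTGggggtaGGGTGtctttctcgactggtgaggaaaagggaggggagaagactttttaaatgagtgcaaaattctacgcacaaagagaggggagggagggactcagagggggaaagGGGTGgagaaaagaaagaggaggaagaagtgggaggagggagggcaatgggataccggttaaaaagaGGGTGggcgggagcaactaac
Aqp1: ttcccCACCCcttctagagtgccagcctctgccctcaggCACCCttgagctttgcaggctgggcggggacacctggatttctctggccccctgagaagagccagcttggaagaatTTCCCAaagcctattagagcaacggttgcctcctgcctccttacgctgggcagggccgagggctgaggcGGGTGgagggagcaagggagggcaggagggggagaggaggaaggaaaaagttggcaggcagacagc
Gja1: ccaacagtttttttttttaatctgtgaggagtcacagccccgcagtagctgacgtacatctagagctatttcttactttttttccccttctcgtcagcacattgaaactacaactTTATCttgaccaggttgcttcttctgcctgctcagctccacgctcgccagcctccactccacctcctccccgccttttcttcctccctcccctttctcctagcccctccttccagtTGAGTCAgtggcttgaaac

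The motifs were AACAAT (SOX), TGGGAA (RBPJ, the DNA-binding partner of Notch), CACCC (KLF), TGANTCA (AP-1), TGACNNNGC (antioxidant response element), GATAA (GATA) and AGGTCA (nuclear receptor half-site), and no 2 matches shared a base in these 4 windows. Gja1, the gene that was higher, held the AP-1 letters 13 to 19 bases before its start, which 4.79% of the windows of 11414 listed genes also hold. It also held the GATA letters 131 to 135 bases before the start, a motif in 15% of those windows. Gja5 held the KLF letters at 4 places and Aqp1 at 3, and 56.9% of the windows of listed genes, over which all these shares are taken, hold them at least once. Aqp1 also held the RBPJ letters, 130 to 135 bases before its start, as 20.9% of windows do. None of the 7 motifs was found in the window of Gja4. The SOX letters were in 0 of the 8 windows found for the genes of the list, beside 5.55% of the windows of listed genes, and the half-site letters were also in 0, beside 10.9%. Of the other genes of the list Efnb2 held the antioxidant response letters at 3 places, a motif in 12% of windows. A match is a run of letters and not a measured site. No window was found for Sox17 or Sox18.

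The connexin genes went in opposite directions. Gja4 (ENSMUSG00000050234.7, chromosome 4, 127311421 to 127314039), the gene of Cx37, had 1562 reads in the control library, 287 in the glucose oxidase library and 83 in the library given both agents. The levels stepped down from library to library, and the counting intervals of the differences left out equal levels. After glucose oxidase the normalized count was 19.6% of control (95% interval 17.3 to 22.3), a log2 ratio of -2.31. In the library given both agents it was 5.28% of control (4.18 to 6.59), a log2 ratio of -4.08, and 6 of the 18287 listed genes, Gja4 among them, had a ratio as low or lower there. The authors' deposited table, on another log2 scale, gives -1.84 and -3.50 for Gja4. It was also 26.9% (20.8 to 34.4) of the level after glucose oxidase alone.

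Gja5 (ENSMUSG00000057123.14, chromosome 3, 96904693 to 97077416), the gene of Cx40, was read 3701 times in the control library, 1589 times with the enzyme alone and 432 times with both agents. Glucose oxidase left 45.9% of the control level (43.2 to 48.7), and the library given both agents held 11.6% (10.5 to 12.8). The larger step lay between the treated libraries, where the level with Et2HOBA was 25.3% (22.7 to 28.1) of that without it, a log2 ratio of -1.96 beside -1.12 for glucose oxidase against control. The longest annotated transcript of Gja5 shares 24.2% of its 50-base stretches with Gpr89, a neighbour on the opposite strand, and with Zfp697. Gpr89 had 651, 585 and 656 reads in the same order of libraries and Zfp697 had 587, 465 and 813. How shared reads were assigned is not given in the sources used here, and their part in the result was not tested.

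Gja1 (ENSMUSG00000050953.10, chromosome 10, 56377330 to 56402513), the gene of Cx43, was the only one of the 9 genes that was higher than control in the treated libraries. Its reads numbered 1832 in the control library, 3478 with the enzyme alone and 5736 with both agents. Against control the normalized count was 2.03-fold (1.92 to 2.15) after glucose oxidase and 3.11-fold (2.95 to 3.28) with both agents, log2 ratios of 1.02 and 1.63. The first of these lies at the limit of 1: the authors' deposited table gives 0.95 for Gja1 after glucose oxidase, and total-count scaling in place of median-of-ratios scaling also put it under 1. Between the treated libraries it was 1.53-fold (1.47 to 1.60) higher with Et2HOBA.

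**Figure D1:**
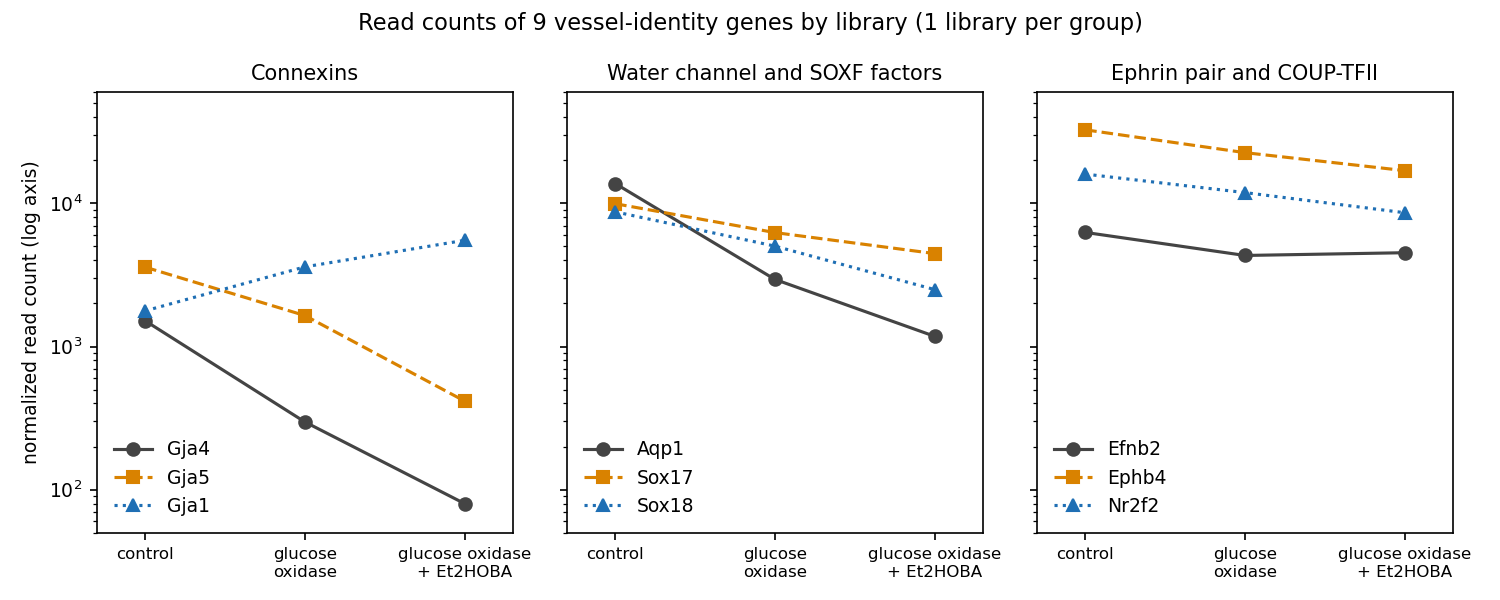
Normalized read count (vertical log axis) of the 9 genes in the 3 libraries (horizontal axis), 1 point per library and so without error bars, with lines joining the points of a gene. Gja4 runs from 1514 down to 79.9 and Gja1 from 1775 up to 5523, while Efnb2, Ephb4 and Nr2f2 span the smallest ranges.

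Per length the order of the connexins turned over. In control the levels were 89.7 TPM for Gja4, 62.4 for Gja5 and 17.3 for Gja1. In the library given both agents they were 4.25 TPM for Gja4, 6.49 for Gja5 and 48.3 for Gja1. The ratio of Gja1 to Gja4 per length was 0.193 in the control library (95% interval 0.180 to 0.206), 1.99 with the enzyme alone (1.76 to 2.25) and 11.4 with both agents (9.14 to 14.3). For Gja1 to Gja5 it was 0.277 (0.262 to 0.293), 1.23 (1.16 to 1.30) and 7.44 (6.74 to 8.22). Within a library such a ratio does not depend on the scaling between libraries, but it depends on the length used. Joined exons cover 10257 bases for Gja1, against 3889 in its longest transcript. For Gja5 these lengths are 5746 and 3668, and for Gja4 both are 1685. With transcript lengths Gja1 would stand higher against both genes in every library, by the same factor in each. The sums and shares given next depend on the lengths too. Gjc1, the gene of Cx45 and the other connexin with more than a few reads, had 722, 705 and 851 reads and levels of 14.0, 14.2 and 14.7 TPM. Its log2 ratios against control, on the normalized counts, were 0.06 and 0.22. Its share of the connexin sum went from 7.57% in control to 19.8% with both agents. Summed over the 8 listed connexins, the level was 185 TPM in the control library, 94.7 with the enzyme alone and 74.1 with both agents. Gja4 made up 48.6%, 18.1% and 5.74% of that sum and Gja1 made up 9.37%, 36.1% and 65.1%. Of the pannexins, which form channels in single membranes, Panx1 had 583, 768 and 784 reads, log2 ratios of 0.49 and 0.41 against control.

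**Figure D2:**
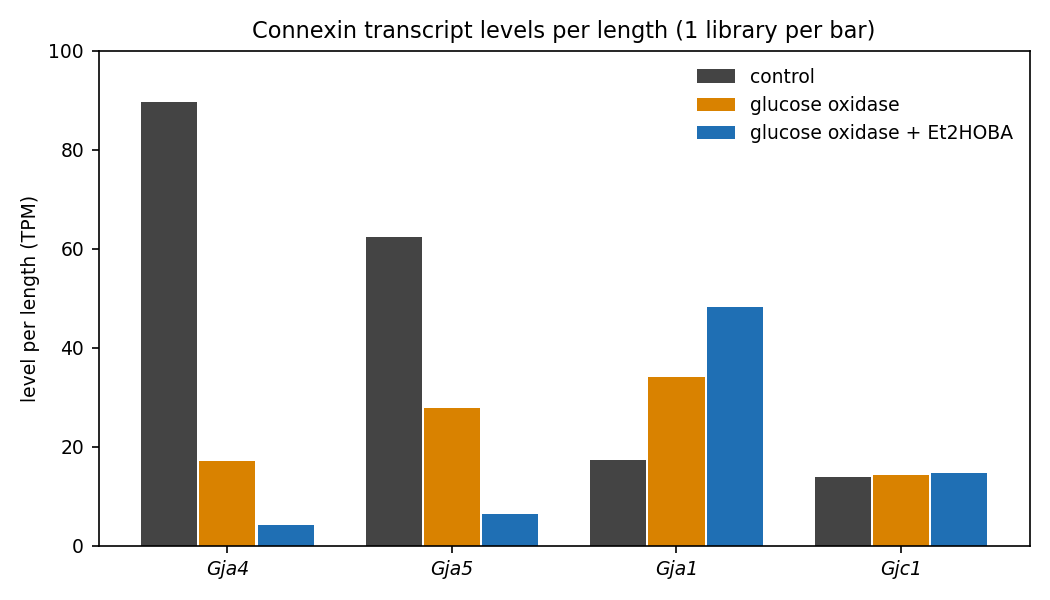
Level per length in TPM (vertical axis from 0) of the 4 connexin genes with more than a few reads, with 1 bar per library and so without error bars. Gja4 and Gja5 stand highest in control and Gja1 in the library given both agents, while Gjc1 stays between 14.0 and 14.7 TPM.

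Aqp1 encodes aquaporin-1, a channel that lets water cross the membrane of endothelial and other cells. Aqp1 (ENSMUSG00000004655.5, chromosome 6, 55336432 to 55348555) was covered by 14207 control reads, 2842 reads of the glucose oxidase library and 1224 of the library given both agents. The level was 21.4% of control (20.5 to 22.3) after glucose oxidase and 8.56% (8.07 to 9.08) with both agents, and 40.0% (37.4 to 42.8) of the level after glucose oxidase when Et2HOBA was added. Per length it went from 524 TPM to 109 and 40.2. The longest annotated transcript of Aqp1 shares no 50-base stretch with another gene, and neither do the longest of Gja4, Sox18, Efnb2 and Ephb4. Of the 12 aquaporin genes 5 were listed. Aqp11 had 434, 265 and 222 reads, with log2 ratios of -0.60 and -0.94 against control. Aqp8 went the other way, with 40, 63 and 114 reads, 2.83-fold (1.96 to 4.17) of control in the library given both agents. Aqp3 and Mip had at most 26 reads in any library.

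Sox17 and Sox18 belong to the SOXF group, factors that bind DNA through an HMG box and act in the formation of arteries and of blood and lymphatic vessels. Sox18 (ENSMUSG00000046470.5, chromosome 2, 181669836 to 181671640) had 9014 control reads, 4854 with the enzyme alone and 2595 with both agents. Its level was 57.6% of control (55.6 to 59.6) in the second library and 28.6% (27.4 to 29.9) in the third, log2 ratios of -0.80 and -1.80. Sox17 (ENSMUSG00000025902.13, chromosome 1, 4490931 to 4497354) had 10269, 6037 and 4632 reads, 62.8% of control (60.9 to 64.9) and then 44.8% (43.3 to 46.4). Both genes stepped down in the same order of libraries, Sox18 further than Sox17. The ratio of Sox17 to Sox18 per length was 0.387 in control (0.376 to 0.398), 0.422 (0.406 to 0.439) with the enzyme alone and 0.606 (0.577 to 0.636) with Et2HOBA. The remaining SOXF gene, Sox7, had 897, 623 and 571 reads, with log2 ratios of -0.42 and -0.65. Sox17 shares 23.7% of the 50-base stretches of its longest transcript with Gm37587, annotated on the opposite strand, which had 7, 7 and 2 reads.

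The pair that marks the border of artery and vein was lower on both sides. Efnb2 (ENSMUSG00000001300.16, chromosome 8, 8617434 to 8661242), the arterial ligand, had 6472 control reads, 4177 with the enzyme alone and 4697 with both agents. Against control its level was 69.0% (66.4 to 71.7) and 72.1% (69.4 to 74.9), log2 ratios of -0.53 and -0.47. Efnb2 was the only one of the 9 genes whose treated libraries lay this close together, with 104.5% (100.2 to 109.0) of the glucose oxidase level when Et2HOBA was added. That last direction depends on the scaling: the log2 ratio of 0.06 turned to -0.03 with total-count scaling.

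Ephb4 (ENSMUSG00000029710.15, chromosome 5, 137350109 to 137378669), the venous receptor, had 33706, 21835 and 17596 reads in the same order of libraries. Its level was 69.3% of control (68.1 to 70.4) after glucose oxidase and 51.9% (50.9 to 52.8) with both agents. The ratio of ligand to receptor per length, Efnb2 to Ephb4, was 0.130 in control (0.127 to 0.133) and 0.129 after glucose oxidase (0.125 to 0.134), with intervals that overlap almost in full. In the library given both agents it was 0.181 (0.175 to 0.187), outside the intervals of the other two.

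Nr2f2 (ENSMUSG00000030551.14, chromosome 7, 70351944 to 70366735), the gene of COUP-TFII, had 16534, 11483 and 8939 reads. The level was 74.2% of control (72.5 to 76.0) after glucose oxidase and 53.7% (52.3 to 55.1) with both agents. The ratio per length of Ephb4 to Nr2f2, the venous genes of the set, was 3.79 (3.72 to 3.86) in control. It was 3.53 (3.46 to 3.62) with the enzyme alone and 3.66 (3.57 to 3.75) with Et2HOBA. These values lay near each other, but the intervals of the control and glucose oxidase libraries did not overlap. B130024G19Rik, which overlaps an exon of Nr2f2 on the opposite strand, had 647, 386 and 146 reads. The libraries were stranded, and whether the counting used the strand is not given in the sources used here. With Et2HOBA against control the log2 ratios of Ephb4 and Nr2f2, -0.95 and -0.90, lay just short of 1, and total-count scaling put both past it, at -1.10 and -1.05.

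**Figure D3:**
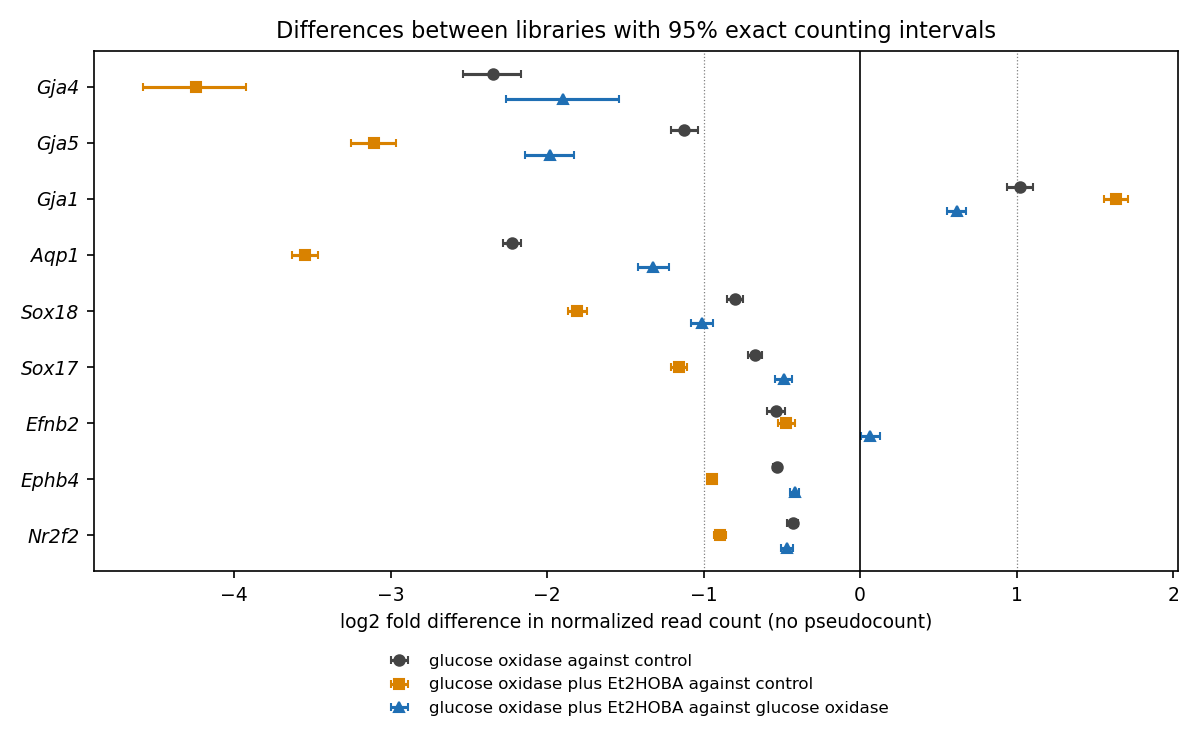
Log2 fold difference in normalized read count, without a pseudocount, of the 9 genes in the 3 comparisons (horizontal axis), with bars for the 95% exact counting interval and dotted lines at 1 and -1. All genes but Gja1 lie left of 0 in both comparisons against control, and Efnb2 is at 0.06 between the treated libraries.

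Within the control library the order of the levels per length was Ephb4 at 703 TPM, Sox18 at 539, Aqp1 at 524, Sox17 at 208, Nr2f2 at 186, Efnb2 at 91.4, then Gja4, Gja5 and Gja1. On these joined exon lengths Efnb2 and Gja4 did not differ beyond counting error, with a ratio of 1.02 (0.964 to 1.08). Sox18 and Aqp1 differed by 1.03-fold (1.002 to 1.056). Neighbours in the order of the other libraries differed beyond counting error, which covers neither the error between cultures nor the length used. The joined exons of Efnb2 cover 6855 bases, against 4793 in its longest transcript. For Sox17 these lengths are 4772 and 3242, and for Nr2f2 8625 and 4222. With transcript lengths Efnb2 and Gja5 would stand above Gja4 in control, and Nr2f2 above Sox17. In these cells from an artery the venous gene Ephb4 stood above the arterial genes Efnb2, Gja4, Gja5 and Sox17. With both agents the order was Ephb4 at 327 TPM, Sox18 at 138, Nr2f2 at 89.4, Sox17 at 83.8, Efnb2 at 59.1, Gja1 at 48.3, Aqp1 at 40.2, Gja5 and Gja4.

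Wider lists of vessel genes were set beside the 9. Of 119 further symbols 80 were listed, and 22 of these passed a log2 ratio of 1 after glucose oxidase (5 higher, 17 lower), where 12.7% of all listed genes passed. With both agents 31 passed (11 higher, 20 lower), beside 14.7% of all genes. Between the treated libraries 4 passed (1 higher, 3 lower), beside 8.55% of all genes. Of the 22, 31 and 4 list genes that passed, 16, 25 and 3 had a mean normalized count of at least 50. The list genes counted in these 3 comparisons were all protein-coding. Of protein-coding genes 9.30%, 16.6% and 3.32% passed. The medians over the 80 genes were -0.10, -0.33 and -0.17. Of the 16 further arterial genes listed, 4 were lower and 1 was higher past the limit after glucose oxidase, and 4 were lower and 2 higher with both agents, with medians of -0.15 and -0.33. Sema3g, a secreted guidance cue of arterial cells, had 2039, 623 and 344 reads, and Glul, the gene of glutamine synthetase, had 7058, 2854 and 2120. Jag1, a Notch ligand, went the other way with 5337, 8265 and 20718 reads, 3.86-fold (3.74 to 3.98) of control with both agents.

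Among the 10 further venous genes listed, 3 were lower and 1 was higher past the limit in each comparison against control, with medians of -0.34 and -0.63. Of all listed genes 8.60% and 8.04% were lower past the limit in these comparisons, and 4.07% and 6.66% were higher. Aplnr, 1 of the 3 lower, had only 128, 11 and 7 reads. Tll1, a secreted protease, had 3025, 808 and 531 reads, and Vwf, the gene of von Willebrand factor, had 46607, 21567 and 12545. Selp, the gene of P-selectin, was the gene that was higher, at 4.77-fold (4.63 to 4.92) of control with both agents. Genes of both identities were found on both sides of 0, and the arterial and venous lists were not tested against each other. All 6 listed capillary genes were lower past the limit after glucose oxidase and 5 of them with both agents, with medians of -1.57 and -1.95. The shares of all genes are those given above. Rgcc, counted in both comparisons, had only 67, 14 and 2 reads. Sgk1, a kinase gene, had 18407, 5547 and 3098 reads, and Gpihbp1, which carries lipoprotein lipase into capillaries, had 1462, 470 and 259. The fatty acid carriers Cd36 (2964, 897 and 1093 reads) and Fabp4 (1572, 679 and 893 reads) were not lower with Et2HOBA added than without it. Kdr, the gene of a VEGF receptor, had 61640, 27584 and 24227 reads.

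Ephrins and Eph receptors other than the pair above had medians of 0.40 after glucose oxidase and 0.15 with both agents over 12 listed genes, 1 higher and 1 lower past the limit in the first and 3 higher and 1 lower in the second, beside the 12.7% and 14.7% of all genes past it in either direction. Epha1, with only 4, 18 and 28 reads, and Ephb1, with 23, 1 and 1, were counted in both comparisons. Efna4, with only 5, 14 and 23, was counted with both agents. The count after glucose oxidase rests on these few reads, lies near its background and is no result about the list. Epha2, a receptor for A-type ephrins, was the remaining gene counted with both agents. It had 1401, 2345 and 4151 reads, 2.94-fold (2.77 to 3.13) of control with both agents. Of 19 further endothelial transcription factors listed, 2 were lower past the limit after glucose oxidase and 5 were lower and 2 higher with both agents, beside the same shares of all genes. The first of these counts is near its background and is no result about the list. Lyl1, a factor of blood and endothelial cells, had 1029, 453 and 205 reads, Hhex had 2294, 1018 and 653, and the ETS factor Fli1 had 8374, 4260 and 2621. Rbpj was higher, with 1764, 2822 and 4461 reads, as was Foxc2 with 163, 224 and 424. In the axis of the receptor that Cxcr4 encodes, the ligand gene Cxcl12 had 9243, 1791 and 879 reads, 0.0945-fold (0.0881 to 0.101) of control with both agents, whereas Ackr3, the gene of the other receptor for that ligand, had 1462, 2416 and 3892. Arrb1, the gene of beta-arrestin 1, had 12290, 8007 and 4686 reads.

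**Figure D4:**
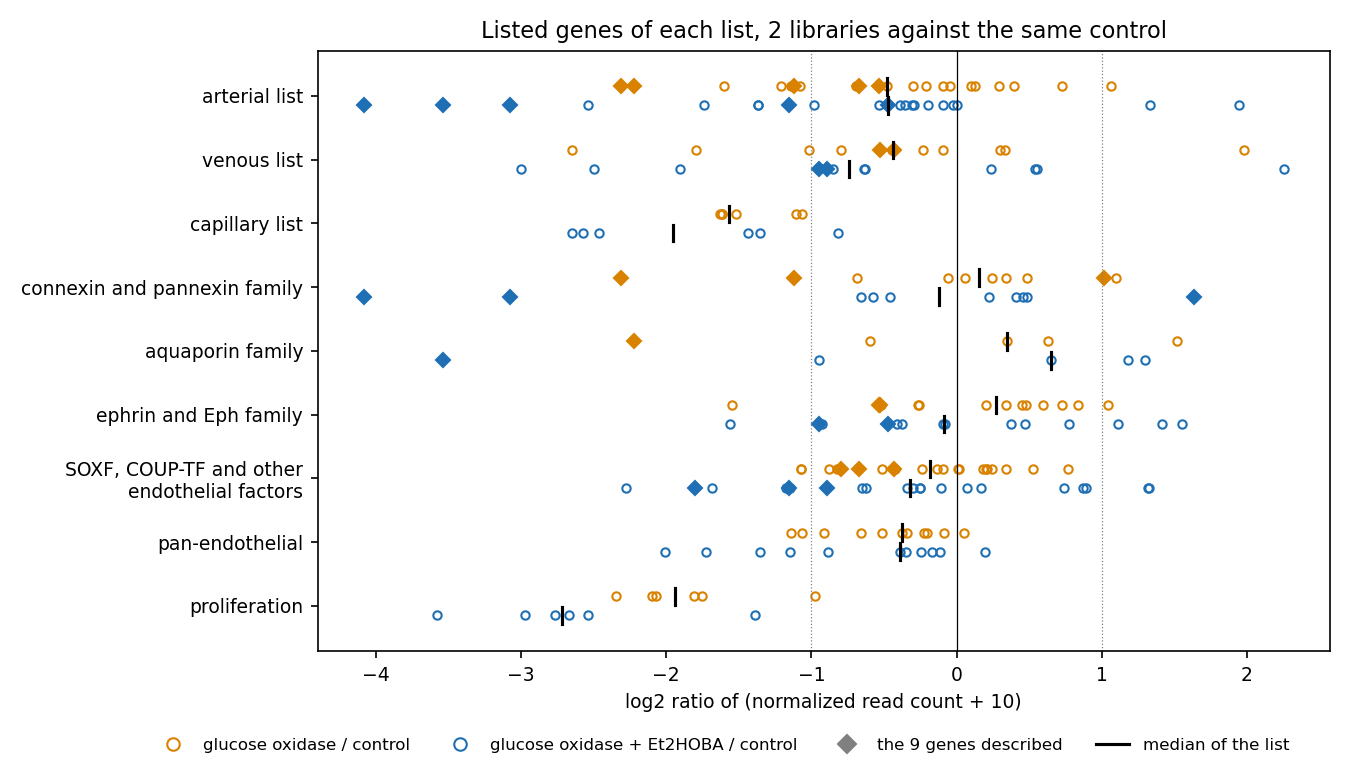
Log2 ratio of normalized count plus 10 against the shared control (horizontal axis) of each listed gene of 9 lists, for the glucose oxidase library and the library given both agents; diamonds are the 9 genes described and black bars the medians of the lists, these genes included. The capillary and proliferation lists lie wholly left of 0, and the connexin list holds points on both sides.

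Genes with the nearest pattern were sought among protein-coding genes of similar abundance, by the distance between pairs of log2 ratios to control over the 3 libraries. The nearest to Gja4 were Megf6 (570, 96 and 24 reads), Prelp and Ly6f, at distances of 0.05, 0.19 and 0.21 log2 units. For Gja5 they were Oasl2, Csf2rb2 and Rgs2, at 0.16 to 0.29. Aqp1 lay nearest to Cxcl12, at 0.15, followed by Trp53i11 and Aldh1a7. The nearest to Gja1 were 4930503L19Rik, Yars and Eaf1, and those nearest to Sox18 were Fam43a, Ushbp1 and Cavin2. Ephb4 had mt-Cytb, Atp5j2 and Flt1 nearest, Nr2f2 had Adarb1, Man1c1 and Bst1, Sox17 had Eogt, Tmem88 and Abca1, and Efnb2 had Gfod1, Foxo3 and Mindy2. The distance rests on 3 libraries, each gene had between 1350 and 7638 candidates, and the nearest genes describe these libraries only.

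The labelled cell type was checked against markers. All 11 general endothelial markers were listed, Cdh5 with 55360, 45034 and 63665 reads and Pecam1 with 37351, 26919 and 29562. After glucose oxidase 2 of the 11 were lower past the limit, beside 8.60% of all genes (4.76% of protein-coding genes). With both agents 4 were, beside 8.04% (9.30%). The markers past the limit were Kdr, also a capillary gene above, and Tek (6786, 2877 and 1688 reads) in both comparisons. With both agents Erg (5936, 3887 and 2697) and Cldn5 (50579, 25153 and 15378) were added. Fewer cells of a kind and less RNA per cell cannot be told apart in such bulk libraries. Of 9 smooth muscle and pericyte markers 6 were listed, with a summed level of 1.63, 2.90 and 3.02 TPM. None of the 5 epithelial markers was listed. Among leukocyte markers 3 of 7 were listed, and the summed level of 633, 1369 and 1909 TPM came almost wholly from Cd68, with Ptprc, Adgre1, Cd3e and Itgam unlisted. Of 6 fibroblast markers 3 were listed, with sums of 20.2, 34.1 and 39.3 TPM. Pdgfra had 107, 1325 and 2821 reads in that list, while Col1a1 had 28, 30 and 23 and Pi16, which made up 18.7 TPM of the control sum, had 1231, 1284 and 1085. Lyve1 and Flt4 were the listed lymphatic markers, and Lyve1 had 11828, 22417 and 33226 reads, whereas Prox1, which defines lymphatic identity, was unlisted. The part of any of these in the results was not tested. The 6 proliferation genes were lower in both treated libraries, with medians of -1.94 and -2.72 and a summed level of 241, 70.8 and 39.2 TPM. They moved with Gja4, Gja5 and Aqp1, and their part in those results was not tested.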

How the data were processed

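Stranded libraries were made from polyadenylated RNA, per the labels' protocols; STAR, featureCounts and build mm10 are named in the submitters' processing notes without version or role. The authors deposited raw read counts of the control and the glucose oxidase plus Et2HOBA libraries, log-normalized values and log2 differences for 18287 genes, per the file headers. For glucose oxidase against control the authors deposited a symbol and a log2 difference, with no p-value. Whole reads of that library were worked out from these differences and the control counts, under a scale inferred from the values (arcsinh of a scaled square root of reads): 100% of 18275 genes came within 0.01 of a whole number, against 3.31% with control counts raised by 1, and 12 genes without a unique name were placed by whole reads. The procedure was also run on data simulated under that same scale, so that run cannot show whether the authors used it.

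Scaling used median-of-ratios size factors (1.03, 0.965 and 1.04 for control, glucose oxidase and both agents), and 10 was added before log2 ratios. Folds and percentages of control use no addition. Exon lengths, and so TPM, cover 17878 genes whose identifiers match GENCODE release M21 (GRCm38) by version and position. Sequences are from RefSeq (GRCm38.p6), and 8 of the 10 symbols matched. Python 3.11.15, scipy 1.17.1 and edgeR 4.0.16 (for TMM factors only) were used. The members and lists were chosen with earlier results of these data known. All members found were named; genes of the vessel lists were named if past a log2 ratio of 1 in any comparison with a mean normalized count of at least 50, at most 6 per list. The lists of cell type markers are given by counts and sums, with examples. Exceptions named after their values were seen are Gjc1, Panx1, Sox7, Aqp11, the genes that overlap members, Cdh5, Pecam1, Col1a1, Flt4 and genes with few reads. No count model was fitted, since 1 library per group gives no spread.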

Additional observations from a re-analysis of the deposited data

How the results depend on the processing

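Direction was the same for each of the 9 genes in both comparisons against control with a pseudocount of 1 or 50, total-count scaling, TMM scaling and in the log2 differences the authors deposited. Of 126 alternative values of single genes, 102 moved by at most 0.5 times the width of the gene's log2 counting interval and 23 moved by more. The remaining 1 was reversed: Efnb2 with Et2HOBA against glucose oxidase, at -0.031 with total-count scaling. Total-count scaling, which put the median of all genes at -0.06, -0.13 and -0.08, moved the medians over the 9 genes to -0.73, -1.31 and -0.58. At a limit of 0.5 the number of the 9 genes past it after glucose oxidase was 8 in place of 4, beside 6175 of the 18287 listed genes.

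Over the 80 further genes of the wider lists the limit of 0.5 gave 40, 51 and 29 genes in the 3 comparisons. Beside these, 6175, 7332 and 4670 of the 18287 listed genes passed that limit. Between the treated libraries a pseudocount of 1 and total-count scaling each gave 7 genes of the wider lists in place of 4. Over all genes, after glucose oxidase against control the counts were 2317, and 4243 with a pseudocount of 1, 1163 with 50, 1407 with a mean normalized count of at least 50, 6175 at a limit of 0.5 and 1235 over protein-coding genes. With both agents against control they were 2688, and 4494 and 1696 with pseudocounts of 1 and 50 and 7332 at a limit of 0.5. Between the treated libraries they were 1563, and 3311 and 585 with those pseudocounts, 788 with the filter, 4670 at a limit of 0.5 and 441 over protein-coding genes. Fewer genes are tested with the filter and over protein-coding genes. The share past the limit differed too. It was 9.30%, 16.6% and 3.32% of protein-coding genes in the 3 comparisons, beside 12.7%, 14.7% and 8.55% of all genes.

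The deposited scale was not run between the treated libraries, since none of the 9 genes is among the 7 genes of that deposited table. No paired analysis was possible because each group has 1 library. Depth limits Gja4 most, with 83 reads in the library given both agents. The spread between cultures was not measured.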
